A study of Mus musculus with 12 samples.

Results

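Genes of the primitive streak, the early mesoderm and the endoderm were followed in bulk RNA from mouse eye organoids, a culture in which embryonic stem cells form neural ectoderm and optic vesicles. The 10 genes, listed by name with earlier results of these data known, were T, Eomes, Mixl1, Mesp1, Cer1, Sox17, Foxa2, Gata4, Gata6 and Afp. The count tables held 54232 gene IDs. The organoids came from the Rax-GFP line, heterozygous for a GFP knock-in at Rax, and all 12 libraries were from day 7 of culture. The 3 groups, of 4 libraries each, were control organoids, LDHi organoids, in which lactate dehydrogenase was inhibited for 3 days with GNE-140 at 20 µM, and LDHi+lactate organoids, which received sodium L-lactate at 25 mM besides the inhibitor. All 3 groups thus share the knock-in allele, the single line and the Matrigel, a basement membrane extract, that the culture method adds. The labels describe lactate as a pretreatment of 12 h, whereas the study's methods add it in the presence of GNE-140.

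In the embryo, cells that leave the epiblast through the primitive streak become mesoderm and definitive endoderm, while cells that stay become ectoderm. Nodal, BMP and Wnt signals start the streak, and T, Eomes and Mixl1 are among its first transcription factors. A separate endoderm, the primitive endoderm, lines the blastocyst cavity and gives the yolk sac, and it uses Sox17, Gata4, Gata6 and Foxa2 as well. Several of these genes also have neural roles, Eomes in intermediate progenitors of the cerebral cortex and Foxa2 in the floor plate, so each gene is given here beside other markers of the tissues that use it.

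Each library held 22174002 to 48271386 counts. Replicates 1 and 2 of every group, labelled as eye organoid, held 37284585 to 48271386, and replicates 3 and 4, labelled as retina progenitors, held 22174002 to 29919036. Across genes, same-numbered libraries of 2 groups departed from their group means in the same way (correlation 0.329 to 0.634 over 12 pairs), so results of a fit blocked by replicate number accompany those of the planned fit, which holds the treatment alone. Neural ectoderm genes were counted in every library, with Sox2 at 401 ± 68.6 CPM in control organoids (counts scaled by effective library size and written as CPM; SD, n = 4), Pax6 at 288 ± 77.6 and Six3 at 88.4 ± 25.4. Of 17 neural ectoderm genes tested, 1 rose and 2 fell in LDHi with the treatment alone, and with the block 2 rose and 5 fell. The shares of all genes tested were 0.909% and 2.18% with the treatment alone, and 9.85% and 10.1% with the block. The eye field genes Rax, from 26.6 ± 10.4 to 6.60 ± 4.38 CPM (log2 fold change -2.03, SE 0.42, adjusted p = 0.0247, edgeR), and Six3, to 38.0 ± 10.2 CPM (-1.22, SE 0.27, adjusted p = 0.0311), fell, and Sox2 rose. With lactate Rax was at 24.1 ± 7.04 and Six3 at 81.0 ± 27.3 CPM.

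The promoters of 3 of the genes are printed here, since they stand for 3 kinds of result: Foxa2, an endoderm factor counted in every library, Cer1, at 0 counts in 3 of 4 control libraries, and Afp, whose order of groups changed between replicates. RefSeq (GRCm38.p6) had a promoter entry for 6 of the 10 genes. The 250 bases before the annotated start are given 5′ to 3′ on the gene's strand, and capitals mark the motif letters that were searched. The Foxa2 stretch is at chr2:148046970-148047219 on the minus strand, that of Cer1 at chr4:82885152-82885401 on the minus strand and that of Afp at chr5:90490464-90490713 on the plus strand.
Foxa2: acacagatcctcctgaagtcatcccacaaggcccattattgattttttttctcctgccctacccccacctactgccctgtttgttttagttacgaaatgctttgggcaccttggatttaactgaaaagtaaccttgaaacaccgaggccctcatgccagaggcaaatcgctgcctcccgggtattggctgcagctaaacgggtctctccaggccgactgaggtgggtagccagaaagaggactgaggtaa
Cer1: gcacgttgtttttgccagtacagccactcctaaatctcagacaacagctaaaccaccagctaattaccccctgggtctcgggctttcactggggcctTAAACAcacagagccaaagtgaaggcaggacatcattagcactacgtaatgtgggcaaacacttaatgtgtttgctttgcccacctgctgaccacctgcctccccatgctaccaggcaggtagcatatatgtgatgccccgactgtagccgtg
Afp: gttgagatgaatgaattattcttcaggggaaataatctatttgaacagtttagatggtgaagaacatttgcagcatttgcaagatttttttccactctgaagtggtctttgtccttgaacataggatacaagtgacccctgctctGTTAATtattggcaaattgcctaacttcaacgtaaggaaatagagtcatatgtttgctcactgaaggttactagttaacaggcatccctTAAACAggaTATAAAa
The Foxa2 stretch, before the first of its 3 annotated starts, held none of the 7 motifs searched, nor did the stretch before the second. Those were TATAAA (the TATA box, gene strand only) and, on both strands, AGATAA for GATA factors, TAAACA for forkhead factors, AACAAT for SOX factors, GGTGTG for T-box factors, GTTAAT for the HNF1 family and ATCCAC for FOXH1. Before the third Foxa2 start, not printed, lay an AGATAA at 183 bases and, on the other strand, a GTTAAT at 176 bases, and 9.99% of all promoters held an AGATAA. Cer1 held 1 forkhead core, 153 bases before the start, and 12% of all 32851 promoters held those letters. Afp, the main serum protein of yolk sac and fetal liver, held a GTTAAT 105 bases, a TAAACA 16 bases and a TATAAA 7 bases before its RefSeq start, and the TATAAA lies 30 bases before the start in GENCODE vM21. The shares of all promoters were 6.43% for GTTAAT and 7.59% for TATAAA. These matches are letters in a window, and no binding was measured.

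The 10 genes spanned more than 2 orders of magnitude in control organoids, with Gata4 and Sox17, regulators of endoderm, the highest. Per kb of exon, the control level was 9.76 ± 5.58 CPM for Gata4, 7.44 ± 2.62 for Sox17, 5.38 ± 3.99 for Eomes, 4.34 ± 2.80 for Foxa2 and 3.36 ± 2.46 for Gata6 (SD, n = 4). Afp followed at 2.47 ± 2.13 CPM per kb and T at 0.418 ± 0.421. Mesp1, Cer1 and Mixl1 were lowest, at 0.114 ± 0.0873, 0.0751 ± 0.15 and 0.0373 ± 0.0578 CPM per kb. Each pair of neighbours in this order differed by less than the larger SD of the pair. Among the genes tested, these control levels stood at percentile 68.1 for Gata4 and 62.2 for Sox17, against 17.8 for T and 0.474 for Mixl1. For comparison, Sox2 had 195 CPM per kb in control organoids and Lama1, a laminin chain of basement membranes, 55.2.

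**Figure D1:**
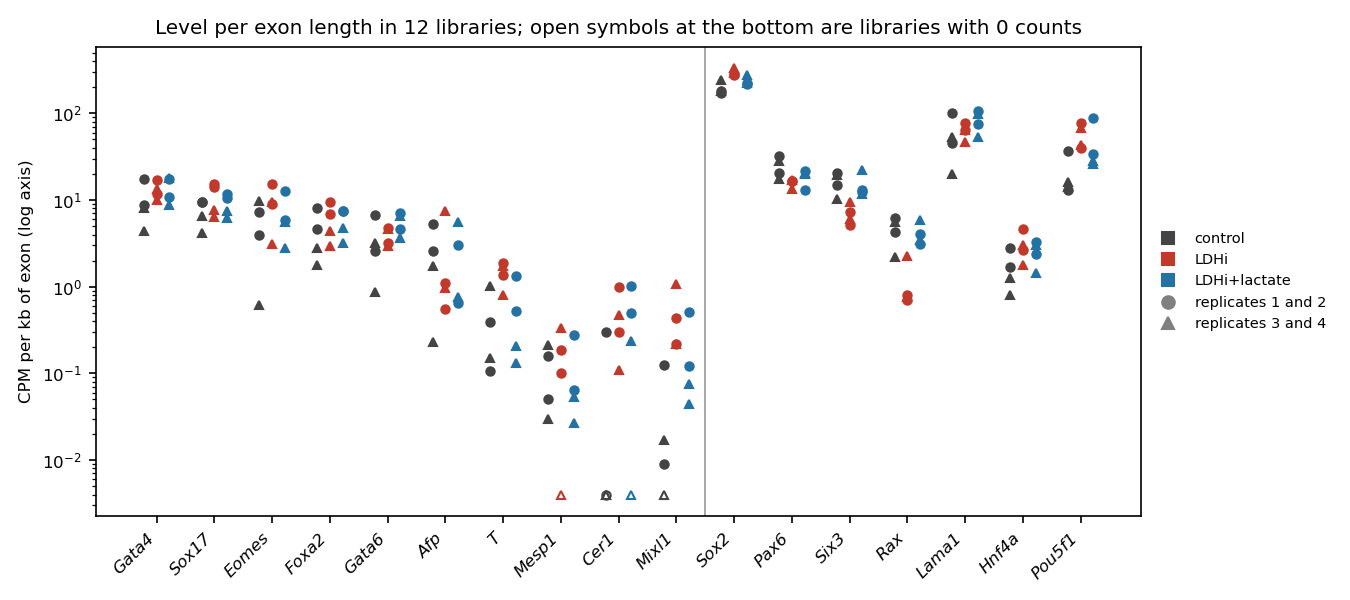
Level of the 10 genes (left of the line, ordered by control mean) and of 7 reference genes in all 12 libraries, as CPM per kb of exon on a log axis; each point is a library, colour gives the group, shape the replicates, and open symbols at the bottom are libraries with 0 counts. Gata4, Sox17, Eomes, Foxa2 and Gata6 sit within a range of about 1 to 18 in nearly all libraries, whereas Mixl1, Cer1 and Mesp1 reach 0 counts in some.

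T, or brachyury, the T-box factor that marks the streak and later the notochord, was low in control organoids and higher in most LDHi libraries. In replicates 1 to 4 it had 0.25, 0.91, 0.35 and 2.36 CPM in control, 3.12, 4.35, 4.05 and 1.88 in LDHi, and 1.21, 3.08, 0.31 and 0.47 in LDHi+lactate. The LDHi value was above the control value of the same number in 3 of 4 replicates, and replicate 4 had the highest control and the lowest LDHi value, so the groups overlapped. With lactate, T was below LDHi in 4 of 4 replicates. The log2 fold change of LDHi against control was 1.82 (SE 0.76, adjusted p = 0.242, edgeR) and 2.04 (SE 0.74, adjusted p = 0.0795) with the replicate block, and neither passed.

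Eomes, a T-box factor of the streak, had a higher control level than T, Mixl1 and Mesp1. It had 30.0, 16.2, 2.54 and 40.7 CPM in control replicates 1 to 4, 64.5, 37.9, 13.1 and 39.1 in LDHi, and 52.4, 24.7, 11.5 and 23.1 in LDHi+lactate. Replicate 3 was the lowest in every group. Its log2 fold change in LDHi was 0.79 (SE 0.68, adjusted p = 0.655) and 0.97 (SE 0.33, adjusted p = 0.0659) with the block.

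Mixl1, a homeobox factor that streak cells use on their way to endoderm, was close to absent from control organoids. Its counts were 1, 13, 0 and 1 in control replicates 1 to 4, 21, 46, 54 and 13 in LDHi and 12, 43, 5 and 3 in LDHi+lactate. In CPM the control libraries reached at most 0.28 and the LDHi libraries had at least 0.50, so the 2 groups did not overlap. Among all genes tested, 4.26% lay without overlap higher in LDHi, and Mixl1 was the only one of the 9 kept by the filter that did. The filter kept Mixl1 through its LDHi libraries, since no control library reached the level the filter asks for. Its place among the 9 and its lack of overlap are therefore not separate support for a difference. The log2 fold change was 3.48 (SE 1.003, adjusted p = 0.0862) and 3.81 (SE 0.81, adjusted p = 0.0090) with the block. Without control replicate 2, which held 13 of the 15 control counts, the planned fit passed (5.55, SE 1.22, adjusted p = 0.0272). With so few control counts these sizes depend on the prior count of the fit.

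Mesp1, which marks the earliest heart-forming mesoderm, gave 69 counts over all 12 libraries and did not pass the filter. Its counts were 10, 3, 1 and 7 in control, 10, 6, 0 and 11 in LDHi and 15, 3, 2 and 1 in LDHi+lactate. A difference between the groups was not detectable at this depth (unfiltered log2 fold change of LDHi against control 0.46, SE 0.86, adjusted p = 0.908, edgeR).

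Cer1, a secreted inhibitor of Nodal, BMP and Wnt made by anterior endoderm, was counted in 1 of 4 control libraries and in 4 of 4 LDHi libraries. Its counts were 0, 24, 0 and 0 in control, 22, 80, 18 and 5 in LDHi, and 37, 65, 12 and 0 in LDHi+lactate. Replicate 2 held the highest count in each group. The log2 fold change in LDHi was 2.47 (SE 1.26, adjusted p = 0.368) and 3.14 (SE 0.85, adjusted p = 0.0268) with the block, a size that again rests on control libraries at 0.

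Sox17, a SOX factor of definitive and primitive endoderm, had the smallest SE of the 9 genes tested with the block. It had 45.4, 45.8, 30.9 and 19.9 CPM in control replicates 1 to 4, 67.5, 73.1, 36.8 and 30.8 in LDHi, and 56.6, 50, 35.7 and 29.5 in LDHi+lactate. In 4 of 4 replicates LDHi was highest, LDHi+lactate next and control lowest, although the groups as wholes overlapped. The log2 fold change in LDHi was 0.55 (SE 0.33, adjusted p = 0.465) with the treatment alone and 0.54 (SE 0.092, adjusted p = 0.0031) with the block.

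Foxa2, a forkhead factor of endoderm, node and floor plate, had 10.96, 19.3, 6.57 and 4.26 CPM in control, 16.5, 22.5, 10.4 and 6.91 in LDHi, and 17.9, 17.8, 11.2 and 7.64 in LDHi+lactate. LDHi was above control in 4 of 4 replicates, and the groups overlapped. The log2 fold change was 0.45 (SE 0.47, adjusted p = 0.737) and 0.52 (SE 0.15, adjusted p = 0.0328) with the block. Sox17 and Foxa2 were both lower in replicates 3 and 4 than in 1 and 2, as given below for the library sets.

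Gata4 and Gata6, zinc finger factors of primitive endoderm and heart, did not pass in LDHi against control in either fit. Gata4 had 34.7, 68.7, 31.8 and 17.2 CPM in control, 46.1, 65.9, 53.0 and 39.0 in LDHi and 42.2, 69.1, 70.9 and 34.01 in LDHi+lactate. Gata6 had 16.9, 43.8, 20.9 and 5.73 CPM in control, 20.9, 30.9, 30.3 and 19.2 in LDHi and 30.2, 46.5, 42.1 and 23.8 in LDHi+lactate. For both genes control replicate 4 was the lowest library. Gata6 was higher in LDHi+lactate than in control and than in LDHi in 4 of 4 replicates, without passing the test in either comparison.

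Afp followed no group. It had 8.68, 17.9, 5.91 and 0.77 CPM in control, 1.87, 3.68, 25.3 and 3.26 in LDHi and 2.17, 10.3, 18.8 and 2.57 in LDHi+lactate. In replicates 1 and 2 the control library was the highest of its number and in replicates 3 and 4 the lowest. The means of the 3 groups, 8.32 ± 7.18, 8.54 ± 11.2 and 8.44 ± 7.83 CPM (SD, n = 4), were close.

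**Figure D2:**
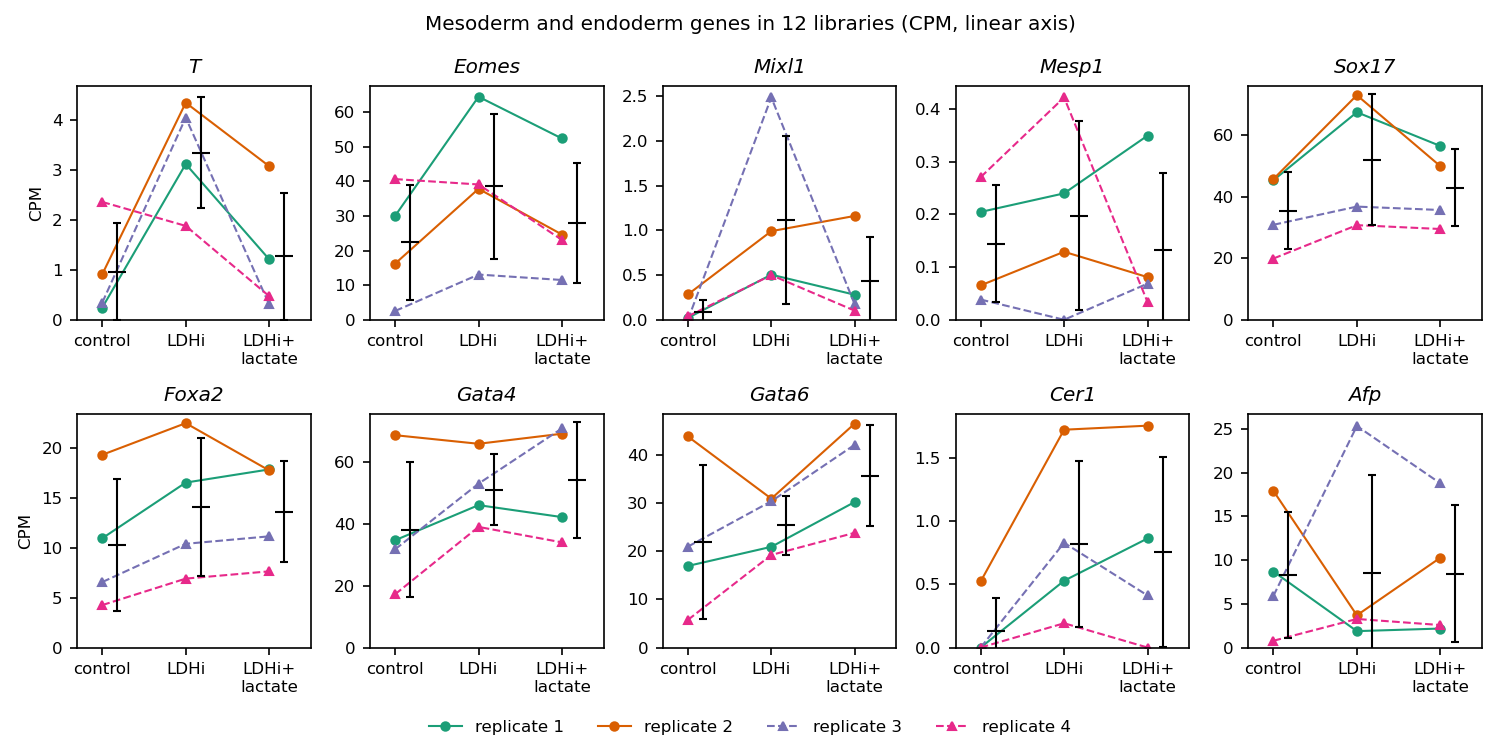
CPM of each gene in the 12 libraries on linear axes that start at 0; lines join libraries with the same replicate number (solid for 1 and 2, dashed for 3 and 4), and black bars give the group mean ± SD (n = 4), clipped at 0. Sox17, Foxa2, Mixl1 and Cer1 go up from control to LDHi in all 4 replicates, T in 3, whereas the Afp lines cross.

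By the planned fit, 0 of the 9 genes kept by the filter passed an adjusted p of 0.05 in LDHi against control, where 3.09% of all 17721 genes tested were called (edgeR's quasi-likelihood test, treatment alone). At an unadjusted p under 0.05 there were 2, Mixl1 and T, against 2916 of all 17721 genes tested. DESeq2, whose count over all genes is given below, called 1, Mixl1. With the replicate block 4 of 9 genes rose, Sox17, Mixl1, Cer1 and Foxa2, and none fell, where 9.85% of all genes tested rose and 10.1% fell (19.9% in all). Of these genes, Mixl1 was kept by the filter through its LDHi libraries. Leaving out each replicate number in turn from that fit, Mixl1 and Sox17 passed in all 4 fits, whereas Foxa2 and Cer1 passed only without replicate 2. Gata4 passed there too, and T and Eomes passed without replicate 4. The fitted log2 fold change was positive for 9 of 9 genes with the treatment alone and for 8 of 9 with the block, where Afp was at -0.43. Their median was 0.55 without the block and 0.54 with it, against 0.0086 and 0.012 over all genes tested.

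For LDHi+lactate against LDHi, 0 of 9 genes passed with the treatment alone (0 also at an unadjusted p under 0.05 and by DESeq2), and 0% of all genes did. With the block 0 of 9 passed, where 0.638% of all genes tested were called. At an unadjusted p under 0.05 there were 3 of 9 with the block, against 2021 of all 17721 genes tested. T had the largest fitted difference, -1.39 (SE 0.74, adjusted p = 0.9999) and -1.64 (SE 0.69, adjusted p = 0.404) with the block. Mixl1 followed, at -1.33 (SE 0.87) and -1.58 (SE 0.68, adjusted p = 0.415) with the block. T, Eomes and Sox17 were lower with lactate in 4 of 4 replicates, and Gata6 was higher in 4 of 4. The share of all genes tested with 1 direction in 4 of 4 replicates was not counted in any comparison. These orders are therefore not read as differences.

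In LDHi+lactate against control, 0 of 9 genes passed with the treatment alone (0 at an unadjusted p under 0.05 and 0 by DESeq2), as did 0% of all genes tested. With the block 0 of 9 passed, where 8.05% of all genes were called. At an unadjusted p under 0.05 there were 6 of 9 with the block, against 4682 of all 17721 genes tested. The lowest adjusted p-values there were 0.0540 for Foxa2 (log2 fold change 0.53, SE 0.15), 0.0643 for Cer1, 0.0678 for Gata6 (0.88, SE 0.27), 0.0684 for Sox17 (0.30, SE 0.092) and 0.0809 for Gata4 (0.58, SE 0.19). DESeq2 with the block called 6, the same 5 genes and Mixl1. This comparison and the previous ones share libraries, so their values are not independent of each other.

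**Figure D3:**
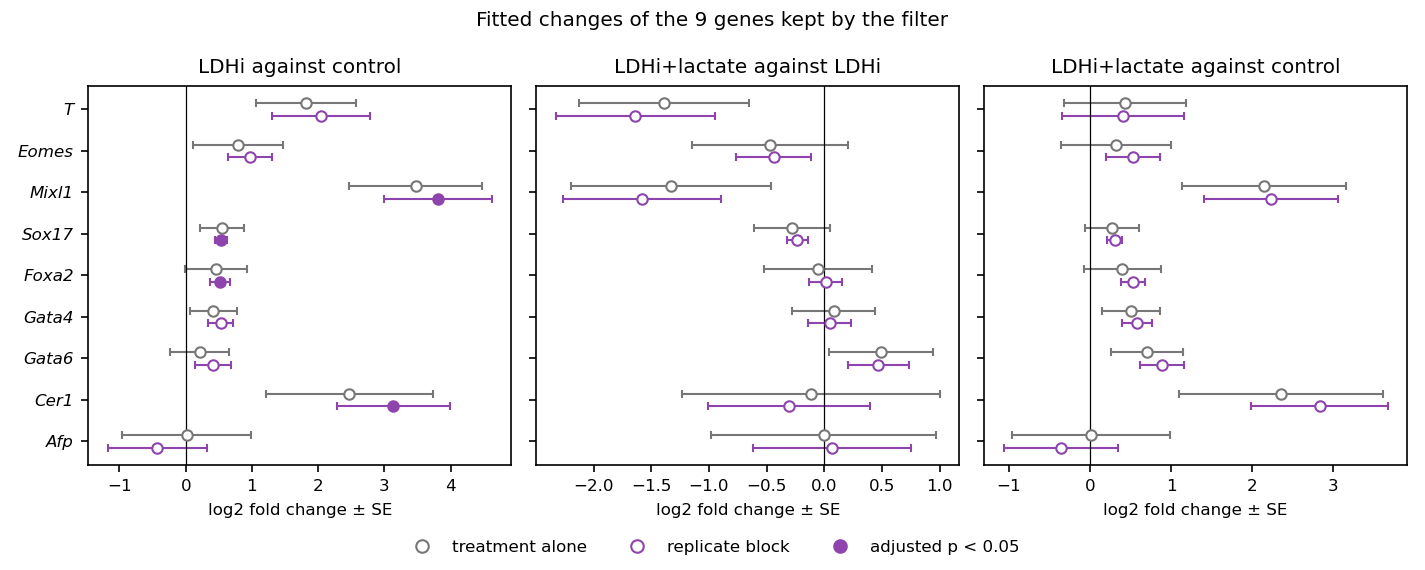
Fitted log2 fold change ± SE of the 9 genes kept by the filter in the 3 comparisons, from edgeR with the treatment alone (grey) and with the replicate block (purple); filled points have an adjusted p under 0.05. The filled points are Sox17, Mixl1, Cer1 and Foxa2 in LDHi against control with the block, and the SE of Sox17 goes from 0.33 to 0.092 between the fits.

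The 2 library sets differed for both genes of the Sox17 and Foxa2 pair. In a model with the set as a term, replicates 3 and 4 were lower than replicates 1 and 2 by a log2 of -0.87 for Sox17 (SE 0.11, adjusted p = 0.00028) and of -1.19 for Foxa2 (SE 0.20, adjusted p = 0.0013). These were 2 of 9 genes, where 14.3% of all genes tested were lower in that set. In the same model Sox17 was the 1 gene of the 9 that rose in LDHi (0.52, SE 0.13, adjusted p = 0.0394), where 3.13% of all genes tested rose. The label and the depth of the sets cannot be told apart here.

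Other endoderm genes were described by lists chosen by their known roles. Of 19 tested genes of definitive endoderm and gut, 2 rose in LDHi and 0 fell, where 0.909% of all genes rose and 2.18% fell. They were Cdx2, a caudal homeobox gene (log2 fold change 1.10, SE 0.16, adjusted p = 0.0098, edgeR), and Sox2 (0.61, SE 0.12, adjusted p = 0.0227). Sox2, a gene of foregut and of neural ectoderm, was also the 1 that rose in the neural ectoderm list. It was not put in the pluripotency list. With the block 8 rose and 1 fell, where 9.85% of all genes tested rose and 10.1% fell. Among the 8 were the epithelial adhesion genes Cdh1 (0.71, SE 0.088, adjusted p = 0.00063) and Epcam (0.71, SE 0.12, adjusted p = 0.0027), which are not particular to endoderm, the thyrotropin-releasing hormone gene Trh (2.24, SE 0.44, adjusted p = 0.0063) and Hhex, a homeobox gene of anterior endoderm (0.87, SE 0.27, adjusted p = 0.0462). Otx2, also a forebrain gene, was the 1 that fell (-0.75, SE 0.12, adjusted p = 0.0026). The median of the list was 0.40, against 0.0086 over all genes. Levels in the list differed widely, with Pyy, a gut hormone, at 29 counts in all, Nkx2-1, of thyroid and lung, at 105 and Cdx2 at 4180.

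Primitive and extraembryonic endoderm genes included abundant basement membrane genes, and few differed in LDHi. Of 23 tested, 0 passed with the treatment alone, and the median was 0.030. At an unadjusted p under 0.05 there was 1, against 2916 of all 17721 genes tested. With the block 1 rose, Hnf4a, a nuclear receptor of visceral endoderm and liver (0.93, SE 0.16, adjusted p = 0.0027). Of all genes tested, 9.85% rose with the block. Lama1 had 534 ± 332 CPM in control, 612 ± 118 in LDHi and 817 ± 235 in LDHi+lactate organoids (SD, n = 4). Of the 23 genes, 4 were called higher and 0 lower in LDHi+lactate against control with the block, where 4.18% of all genes tested were higher and 3.87% lower: the basement membrane genes Lamc1 (0.54, SE 0.11, adjusted p = 0.0238), Col4a2 (0.53, SE 0.13, adjusted p = 0.0328) and Lama1 (0.75, SE 0.20, adjusted p = 0.0476), and Hnf4a (0.70, SE 0.16, adjusted p = 0.0277). The treatment alone called 0 there, with 0 at an unadjusted p under 0.05. Cubn and Amn, which together form the cubilin uptake receptor of visceral endoderm, had 94.9 ± 126 and 17.1 ± 21.5 CPM in control organoids, and Apob, of yolk sac lipoproteins, 34.5 ± 49.4, each with an SD above its mean.

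Gata4 and Gata6 went along with Lama1 across libraries. Over the 12 libraries, which share treatments, sets and depth, the correlation of log2 CPM was 0.94 between Gata4 and Gata6, 0.99 between Gata6 and Lama1 and 0.95 between Gata4 and Lama1. Sox17 had 0.65 with Lama1, with -0.067 within replicates 1 and 2 and 0.94 within 3 and 4. Gata6 and Lama1 had 0.98 within replicates 1 and 2 and 0.99 within replicates 3 and 4 (6 libraries each). Control replicate 4 was lowest for both, with Lama1 at 196 CPM, and control replicate 2 held the highest control level, 989 CPM. By the likeness rule, the genes closest to Gata6 among 14240 were Lama1, Srgn and Cemip.

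Sox17 and Foxa2 had a correlation of 0.93 over the 12 libraries, of 0.54 within replicates 1 and 2 and of 0.94 within 3 and 4. Foxa2 had 0.88 with Hnf4a, an endoderm regulator. Its correlations with the 16 tested genes of floor plate and notochord ran from -0.91 to 0.74, and that with Shh, the signal of both tissues, was 0.064. Shh gave 150 counts in all, and Noto, a notochord homeobox gene, 9. Of 16 tested floor plate and notochord genes, 0 passed in LDHi, with 4 at an unadjusted p under 0.05, against 2916 of all 17721 genes tested. With the block 1 rose and 1 fell, the latter Chrd, a secreted BMP inhibitor. The shares of all genes tested with the block were 9.85% and 10.1%. Afp went with Hand1 (0.90), a factor of extraembryonic mesoderm and trophoblast, and with the lipoprotein gene Apoa1 (0.80).

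Eomes went with genes of the cerebral cortex more closely than with T and Mixl1. Its correlation over the 12 libraries was 0.85 with Tbr1, a T-box factor of early cortical neurons, 0.80 with Neurog2, a neurogenic factor, and 0.80 with Emx1, a dorsal forebrain gene, against 0.30 with Mixl1 and 0.48 with T. Tbr1 had 18.6, 3.01, 0.54 and 32.7 CPM in control replicates 1 to 4, 84.3, 12.6, 0.41 and 22.5 in LDHi and 52.6, 1.54, 0.79 and 13.2 in LDHi+lactate. As for Eomes, replicate 3 was lowest in each group and LDHi replicate 1 the highest library. Lhx1, which streak and neurons both use, had 0.91 with Eomes. Of 12 cortical genes, 0 passed in LDHi, with a median of 0.28. At an unadjusted p under 0.05 there were 2, against 2916 of all 17721 genes tested. With the block 1 fell, Pax6. The share of all genes tested that fell with the block was 10.1%. The part of cortical cells in the Eomes values was not tested.

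**Figure D4:**
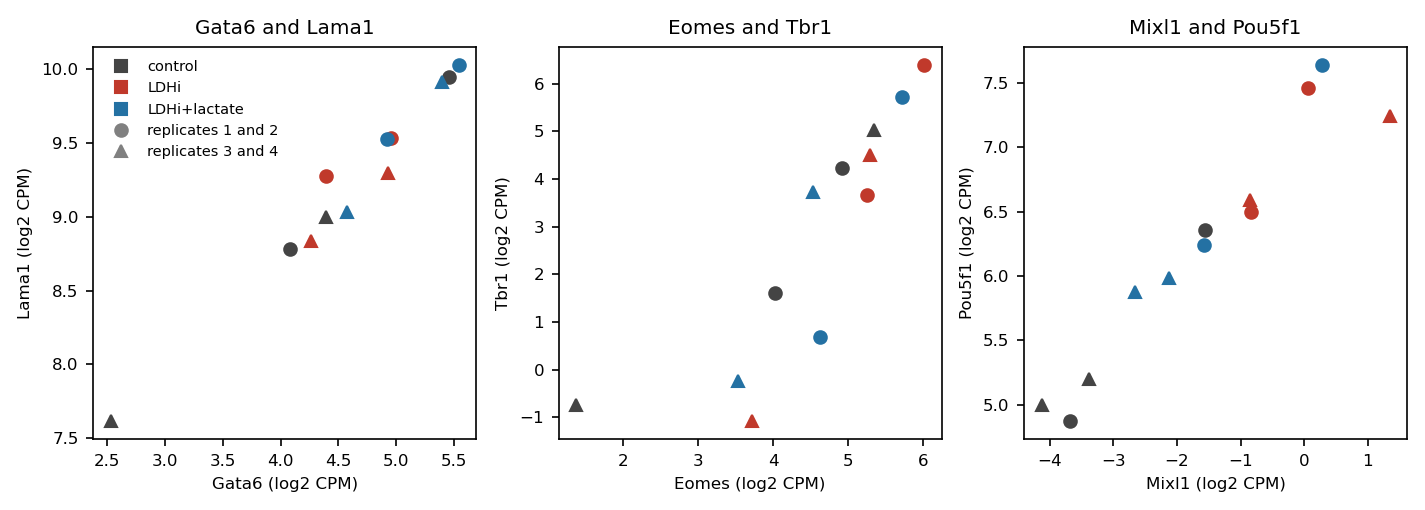
Log2 CPM (prior count 2) of Gata6 and Lama1, Eomes and Tbr1, and Mixl1 and Pou5f1 in the 12 libraries, coloured by group, with circles for replicates 1 and 2 and triangles for 3 and 4. Each pair rises together, with correlations of 0.99, 0.85 and 0.96; in the last panel every LDHi library lies above every control library on both axes, and no group stands apart in the others.

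Mixl1, Cer1 and T went with several genes of pluripotent cells, but not with all of them and not with them alone. Mixl1 had a correlation of 0.96 with Pou5f1, the Oct4 gene, of 0.95 with Gdf3, a Nodal-related ligand, and of 0.86 with Cer1 over the 12 libraries. Cer1 had 0.93 with Utf1, a gene of stem cell chromatin, and T had 0.83 with Dppa3 and 0.79 with Mixl1. Cer1 also had 0.90 with the endoderm gene Hnf4a, and T had 0.89 with Etv2, from the list of heart, vessels and blood. With Lin28a, of the pluripotency list, Mixl1 had 0.12, Cer1 0.28 and T -0.31. Pou5f1 had 29.2, 81.9, 32.0 and 36.7 CPM in control replicates 1 to 4, 90.3, 176, 151 and 96.4 in LDHi and 75.6, 200, 63.3 and 58.6 in LDHi+lactate. The LDHi libraries were above every control library, and those with lactate overlapped both groups.

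Pluripotency genes had the highest median in LDHi of the 10 lists. Of 15 tested, 7 rose and 0 fell, with a median of 1.18 against 0.0086 over all genes, and with the block 12 rose and 0 fell, where 0.909% and 9.85% of all genes tested rose. Klf4 (0.84, SE 0.12, adjusted p = 0.0091), Tfcp2l1 (1.30, SE 0.21, adjusted p = 0.0122), Esrrb (1.49, SE 0.28, adjusted p = 0.0178) and Zfp42 (1.52, SE 0.29, adjusted p = 0.0197), all factors of naive stem cells, led the list. With lactate, 0 differed from control with the treatment alone. At an unadjusted p under 0.05 there were 10, against 1653 of all 17721 genes tested. With the block 10 were higher than in control, where 4.18% of all genes tested were. Their part in the values of Mixl1, Cer1 and T was not tested. T also ran opposite to the eye field genes, with a correlation of -0.80 with Six3 and -0.77 with Rax over the 12 libraries. In bulk RNA, more cells of a type and more RNA per cell cannot be told apart.

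The signals that start the streak were measured too. Of 29 tested Nodal, BMP and Wnt genes, 0 passed in LDHi with the treatment alone, with a median of -0.023. At an unadjusted p under 0.05 there were 9, against 2916 of all 17721 genes tested. With the block 6 rose and 3 fell, where 9.85% of all genes tested rose and 10.1% fell. The share that fell is near that of all genes. The 6 were Nodal (1.39, SE 0.22, adjusted p = 0.0019), its co-receptor Tdgf1 (1.28, SE 0.30, adjusted p = 0.0131), Gdf3 (1.63, SE 0.19, adjusted p = 0.00050), the Nodal pathway factor Foxh1 (1.06, SE 0.23, adjusted p = 0.0092), the proprotein convertase Pcsk6 (0.67, SE 0.16, adjusted p = 0.0141) and the Wnt target Sp5 (0.65, SE 0.20, adjusted p = 0.0446). Tdgf1 is also in the pluripotency list. Gdf1 was at 0 counts in every library.

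Of 19 tested streak and early mesoderm genes other than the 10, 1 fell in LDHi, Kdr, the VEGF receptor of vessel and blood precursors (-1.27, SE 0.31, adjusted p = 0.0444), and 0 rose, where 2.18% of all genes tested fell and 0.909% rose. Kdr had 18.8 ± 2.57 CPM in control, 7.81 ± 1.56 in LDHi and 16.6 ± 8.97 in LDHi+lactate organoids (SD, n = 4). With the block 2 rose, Nodal and Sp5, and 2 fell, Kdr and Snai1, a repressor of epithelial genes in cells leaving the streak (-0.63, SE 0.15, adjusted p = 0.0156). Of all genes tested, 9.85% rose and 10.1% fell with the block. Msgn1, of presomitic mesoderm, gave 12 counts in all.

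Of 9 tested paraxial mesoderm and muscle genes, 2 fell in LDHi, the forkhead genes Foxc1 (-2.78, SE 0.64, adjusted p = 0.0376) and Foxc2 (-3.56, SE 0.83, adjusted p = 0.0397), which mesenchyme around the eye also uses, and 0 rose. Among all genes tested, 2.18% fell and 0.909% rose. Foxc1 had 10.3, 6.55, 11.6 and 37.6 CPM in control replicates 1 to 4, 2.38, 2.15, 1.06 and 3.95 in LDHi and 7.65, 3.13, 1.41 and 6.66 in LDHi+lactate. The control libraries were all above the LDHi libraries, and the share of all genes that lay so is not given here. With the block 3 fell, Meox1 being the third (-1.73, SE 0.35, adjusted p = 0.0065), where 10.1% of all genes tested fell. Myf5, Myod1 and Myog, which start skeletal muscle, gave 6, 33 and 57 counts in all.

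Of 16 tested genes of heart, vessels and blood, Pecam1, an adhesion molecule of endothelium and of stem cells, rose in LDHi (1.42, SE 0.30, adjusted p = 0.0259) and Mef2c, of heart and of neurons, fell (-1.41, SE 0.30, adjusted p = 0.0285). With the block Pecam1 rose and Mef2c, Actc1 (-2.58, SE 0.45, adjusted p = 0.0031) and Tbx20 (-2.33, SE 0.38, adjusted p = 0.0023) fell. Of all genes tested, 0.909% rose and 2.18% fell without the block, and 9.85% and 10.1% with it. Cdh5, the cadherin that defines endothelium, had 8.57 ± 3.82 CPM in control and 10.9 ± 3.46 in LDHi organoids and did not pass. Some genes that define heart and blood were near 0, with Nkx2-5 at 62 counts in all and the embryonic globins Hbb-bh1, Hba-x and Hbb-y at 32, 17 and 30. Others were not, Tbx20 and Mef2c having 2236 and 2235 counts. Gata4 and Gata6, which heart uses, were measured beside 631 counts of the heart myosin gene Myl7 and 111 of the troponin gene Tnnt2.

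By the likeness rule, Mixl1 was closest to Rpe (0.98), Dmtn (0.98) and Zfp951 (0.97), Foxa2 to Cops3 (0.99), Ppp1r8 (0.98) and Krtcap2 (0.98), and Eomes to Ttc9b (0.96), Sox2ot (0.93) and Serinc2 (0.93), as correlations of log2 CPM over 12 libraries. These are the top of 14240 or more genes compared over few libraries.

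Of the 10 genes, 4 overlap another counted gene on the opposite strand, and whether the counting used strand was not stated. The overlapping gene held 4% of the counts of its partner for Gata6, 0.543% for Eomes, 0.107% for Sox17 and 0.0294% for Afp.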

How the data were processed

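Per the labels and the study's methods, RNA was made into TruSeq mRNA libraries and sequenced with 50 bp single reads. The authors deposited raw counts per Ensembl gene, made with cutadapt 1.13, STAR, HTSeq 0.6.1p1 and mm10. Not given in the sources used here were the release of the annotation and whether strand was used. Of 54232 IDs, 54165 matched GENCODE vM21, which gave symbols and exon lengths.

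Counts were tested with edgeR 4.0.16 (R 4.3.3): TMM, filterByExpr by group (17721 genes), all 12 libraries, treatment alone, Benjamini-Hochberg adjustment over all genes tested, threshold 0.05. CPM used TMM sizes, and log2 CPM a prior count of 2. The same replicate number deviated together in every pair (0.329 to 0.634; other numbers of the same set -0.22 to 0.197), which is read from the data. The study states 4 independent experiments.

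The genes, lists and tests were chosen with earlier results of these data known. Named from each list were called genes with the smallest adjusted p, the most abundant genes and those nearest the threshold, and for each member the 3 genes of highest correlation among genes whose mean log2 CPM was 0 or more. Single genes singled out for their level (Pyy, Tbx20, Mef2c, Nkx2-1, Shh, Noto, Msgn1, Gdf1, the muscle, heart and globin genes) and the correlates from the lists were named after their values were seen. Some genes of the lists are counted but not reported by name here. Alternatives were DESeq2 1.42.0, RLE, library totals, other filters, the block, the set, each set alone and libraries left out. In simulated counts for LDHi against control (17221 genes), edgeR without and with the block called 35 and 67 of 100 genes changed by a log2 of 1, and 79 and 90 of 100 changed by 2, with 0 and 7 false calls. These counts were drawn from a fit with the block, so replicate effects were built in. The gain with the block therefore cannot decide between the fits. The lactate group was set equal to control there.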

Additional observations from a re-analysis of the deposited data

Results flagged for a closer look

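In 5 of 30 groups of 4 libraries, 1 library lay far from the other 3 by Dixon's ratio of gap to range, above the critical value, which chance passes in about 1 in 20 groups. Afp in LDHi replicate 3 was at 25.3 CPM, and its group otherwise spanned 1.87 to 3.68. Cer1 in control replicate 2 was at 0.52 CPM, where the other control libraries held 0 counts. Mixl1 in control replicate 2 was at 0.28 CPM, against 0 to 0.039, and in LDHi+lactate replicate 2 at 1.16 CPM, against 0.10 to 0.28. Mesp1 in LDHi+lactate replicate 1 was at 0.35 CPM, against 0.034 to 0.081. The Cer1, Mixl1 and Mesp1 values rest on 13 to 43 counts in the library named.

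Some differences went opposite ways in replicates 1 and 2 and in replicates 3 and 4, and the difference between the sets was tested as a treatment by set term of edgeR. For Afp in LDHi against control the log2 fold change was -2.26 in the first set and 2.09 in the second, a difference of 4.35 (unadjusted p = 0.0406, adjusted p = 0.890). The term was 2.77 for Afp in LDHi+lactate against control (unadjusted p = 0.153, adjusted p = 0.9998, edgeR). It was -1.57 in LDHi+lactate against LDHi (unadjusted p = 0.393, adjusted p = 0.9999, edgeR). T in LDHi+lactate against control had 1.88 in the first set and -1.78 in the second, a difference of -3.66 (unadjusted p = 0.0195, adjusted p = 0.9998, edgeR). Cer1 in LDHi+lactate against LDHi had 0.21 and -1.27, a difference of -1.48 (unadjusted p = 0.504, adjusted p = 0.9999, edgeR). Over all 17721 genes, 0 were called for such a difference in any of the 3 comparisons by edgeR, with 694, 239 and 306 at an unadjusted p under 0.05.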

How the results depend on the processing

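The fitted direction of T, Eomes, Mixl1, Sox17, Foxa2, Gata4 and Cer1 in LDHi against control was positive under every alternative run, while their side of the threshold changed with the setting. With the replicate block 4 of the 9 genes passed in LDHi against control, against 0 without it. The cause of the changes below was not tested. DESeq2 called 1, DESeq2 with the block 6, the set as a term 1, and the block without a filter, chosen after seeing the data, 7. With 1 library or 1 replicate number left out, 0 to 5 passed. The unfiltered block called 1 (T) in LDHi+lactate against LDHi and 6 in LDHi+lactate against control, as did DESeq2 with the block, and the fits with a library or number left out 0 to 3. Lower in replicates 3 and 4 were 6 without a filter, against 2.

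Genes called in LDHi against control, 547 as planned, were 1362 with DESeq2, 304 with only the 2 groups, 3533 and 4116 with the block (edgeR and DESeq2), 3717 with the unfiltered block, 1387 with the set, 3 in replicates 1 and 2 alone, 110 in replicates 3 and 4 alone and 110 to 2893 in the fits that left out a library or number. With lactate against LDHi, 0 as planned, they were 1 unfiltered, 56 with DESeq2, 113 and 485 with the block, 640 with the unfiltered block, 1 with the set and 0 to 114 with a library or number left out. For LDHi+lactate against control, 0 as planned, they were 2 unfiltered, 242 with DESeq2, 1426 and 2521 with the block, 2219 with the unfiltered block and 0 to 692 with a library or number left out.

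Signs turned mostly where the fitted value was near 0. Afp in LDHi against control (0.016) was -0.012 with library totals, -0.0099 unfiltered, -0.43 and -0.34 with the block (edgeR and DESeq2), -0.44 with the unfiltered block, -0.27 with the set, -2.26 in replicates 1 and 2 alone and -1.51 to 0.70 with a library or number left out. Afp in LDHi+lactate against LDHi (-0.0047) was 0.00065 with the 2 groups, 0.067 and 0.020 with the block, 0.068 with the unfiltered block, 0.092 with the set, 1.16 in replicates 1 and 2 alone and -0.76 to 1.52 with a library or number left out. Afp in LDHi+lactate against control (0.011) was -0.016 with library totals, -0.010 unfiltered, -0.36 and -0.32 with the block, -0.37 with the unfiltered block, -0.17 with the set, -1.10 in replicates 1 and 2 alone and -0.82 to 0.70 with a library or number left out. Foxa2 in LDHi+lactate against LDHi (-0.053) was 0.011 and 0.0067 with the block, 0.0091 with the unfiltered block, 0.12 in replicates 3 and 4 alone and -0.28 to 0.27 with a library or number left out. There Gata4 (0.083) was -0.0089 and Cer1 (-0.11) 0.21 in replicates 1 and 2 alone, and they ranged from -0.092 to 0.25 and from -0.93 to 0.58 with a library or number left out. Gata6 in LDHi against control (0.21) was -0.23 in replicates 1 and 2 alone and -0.11 to 0.79 with a library or number left out. For LDHi+lactate against control, T (0.43) was -1.79 and Eomes (0.32) -0.33 in replicates 3 and 4 alone, and they ranged from -0.49 to 1.54 and from -0.18 to 1.05 with a library or number left out. Depth limits Mixl1, Cer1 and Mesp1, with 212, 263 and 69 counts over 12 libraries.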

Other observations

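Control replicate 2 held the highest control level of Mixl1, Cer1, Sox17, Foxa2, Gata4, Gata6 and Afp, and of Pou5f1 and Lama1, whereas Eomes and T were highest in control replicate 4. Control replicate 4 was in turn the lowest control library for Sox17, Foxa2, Gata4, Gata6 and Afp. Eomes and Afp had a correlation of log2 CPM of -0.54 over the 12 libraries, which share treatments, sets and depth.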
